A study of Equus caballus with 3 samples.

Results

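The genes described here are 10 genes of adipocytes and of lipid handling, chosen by name: *MGLL*, *LPL*, *PLIN1*, *PLIN2*, *FABP4*, *FABP5*, *ADIPOQ*, *PPARG*, *CEBPA* and *CIDEC*. All 10 were found among the 29927 gene rows of the 3 deposited matrices. They were read in scRNA-seq of cultured equine mesenchymal stromal cells (MSCs), plastic-adherent stromal cells that can be driven towards fat, bone and cartilage. The MSCs were grown from 3 sources, namely peripheral blood (PB), bone marrow (BM) and fat, that is, adipose tissue (AT), all taken from 1 warmblood mare, aged 10 years and described as healthy, and were captured after 2 passages in culture. No cells were differentiated or treated before capture as far as the labels and methods state. The tissues follow the sample titles, whereas a second label names peripheral blood mononuclear cells for all 3 libraries. Each source had 1 library, so a difference between sources cannot be told apart from a difference between libraries, and no test was run across cells.

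Adipocytes form when the nuclear receptor PPARγ and the transcription factor C/EBPα switch on each other and a set of genes for taking up, storing and releasing fat. Lipoprotein lipase frees fatty acids outside the cell, fatty acid binding proteins carry them inside it, perilipins coat the droplet in which they are stored as triglyceride, and lipases release them again, the last step being cut by monoglyceride lipase. Several of these genes also work in cells that are not adipocytes, and perilipin 2, FABP5 and monoglyceride lipase are found in many tissues.

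Barcodes with 2500 to 15000 UMIs (unique molecular identifiers, 1 per captured transcript) and at most 3% mitochondrial UMIs were kept as cells. This left 5403 AT, 5580 BM and 5318 PB cells, with 39980656, 40239295 and 41622445 UMIs and a median of 7291, 6874.5 and 7750 UMIs per cell. Levels are counts scaled to a library total of 1e6 (CPM), taken from the UMIs summed over the kept cells of a source. Intervals are exact 95% intervals (Poisson for CPM and folds, Clopper-Pearson for shares of cells) and cover counting error only. The libraries shared barcodes. Of the kept cells, 119 AT and 89 BM barcodes were also present in another matrix, and all 5318 PB barcodes were present in the AT matrix, mostly at a low depth there, with 37 kept in both. Of the 6155 AT barcodes under 2500 UMIs, 5716 were also in another matrix. No cell type in these cultures is known to lack the genes described, so the level that free RNA would give could not be read from one.

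Across the 3 sources the 10 genes ranged from plentiful UMIs to the limit of detection. *MGLL*, *FABP5* and *PLIN2* had between 319 and 8420 UMIs in every library. *PPARG*, *CEBPA*, *FABP4* and *LPL* had at most 150 UMIs in any library, and *ADIPOQ*, *PLIN1* and *CIDEC* had at most 8. The BM library held the highest level of *MGLL*, *FABP5*, *PPARG*, *CEBPA* and *FABP4*, and the AT library that of *LPL*. *PLIN2* was nearly level.

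**Figure D1:**
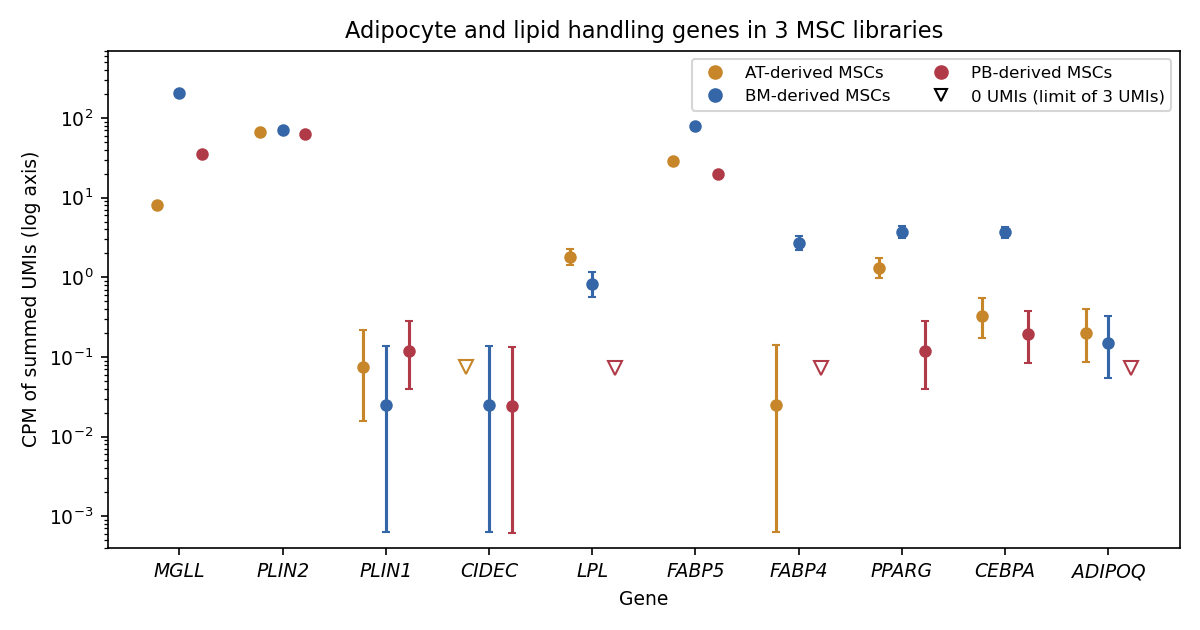
CPM of summed UMIs (log axis) of each of the 10 genes in the AT, BM and PB libraries, with exact 95% Poisson intervals as bars and open triangles at the level of 3 UMIs where a library had 0. The BM point is the highest for MGLL, FABP5, FABP4, PPARG and CEBPA, from 2.71 CPM for FABP4 to 209 CPM for MGLL, while the 3 points of PLIN2 lie between 63.8 and 69.8 CPM.

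A gene was counted as past 2-fold when the log2 ratio of CPM + 1 exceeded 1 in size, among the 13501 genes with at least 30 UMIs over the 3 libraries. Of the 10 genes, 7 reached 30 UMIs, while *PLIN1*, *ADIPOQ* and *CIDEC* did not. *FABP4* and *CEBPA* reached it only through the BM library, which held 109 and 148 of their UMIs. *FABP4*, with 1 UMI in AT and 0 in PB, so had to differ between BM and the others. For *CEBPA*, with 13 UMIs in AT and 8 in PB, the limit did not by itself require a difference. The calls of both genes, and the counts and medians that hold them, are given as descriptions. In BM against AT, 5 of the 7 were past 2-fold higher in BM and 0 were higher in AT, where 7.71% of all compared genes were past 2-fold higher in BM and 2.51% higher in AT. In BM against PB, the same 5 genes, *MGLL*, *FABP4*, *FABP5*, *PPARG* and *CEBPA*, were higher in BM and 0 in PB, beside 5.52% and 2.16% of all compared genes. In PB against AT, *MGLL* was higher in PB, and *LPL* and *PPARG* were higher in AT, beside 5.4% and 4.3%. Of the 5 genes higher in BM, only *MGLL*, *FABP5* and *PPARG* had 30 UMIs without the BM library. The median log2 ratio of the 7 genes was 1.43 for BM minus AT, 1.92 for BM minus PB and -0.15 for PB minus AT. Over all compared genes the medians were 0.21, 0.18 and 0.03. The comparisons share libraries and are therefore not separate evidence. Scaling with TMM factors, which bring the median of all compared genes to about 0, changed the split of all past 2-fold genes in BM against AT from 1041 higher in BM and 339 higher in AT to 727 and 507. In BM against PB it changed the split from 745 and 292 to 511 and 413. Under it *PPARG* fell short of 2-fold in BM against AT, at a log2 ratio of 0.83 in place of 1.02.

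*MGLL*, on chromosome 16 of EquCab3.0, encodes monoglyceride lipase, which splits monoglycerides into a fatty acid and glycerol and also breaks down the endocannabinoid 2-arachidonoylglycerol. Its UMIs numbered 319 in AT, 8420 in BM and 1462 in PB. These counts correspond to 7.98 CPM (7.13 to 8.90) in AT, 209 CPM (205 to 214) in BM and 35.1 CPM (33.3 to 37.0) in PB. The order was BM, PB and AT, with no overlap of intervals. The BM level was 26.2-fold the AT level (23.4 to 29.4) and 5.96-fold the PB level (5.63 to 6.30), and the PB level was 4.40-fold the AT level (3.90 to 4.98).

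The difference in *MGLL* was spread over most BM cells. At least 1 *MGLL* UMI was present in 63.4% of BM cells (62.1 to 64.7), 19.2% of PB cells (18.1 to 20.3) and 5.16% of AT cells (4.59 to 5.79). After every cell was thinned to 2500 UMIs, with 0 cells too shallow to enter, the shares were 35.5%, 7.39% and 2.22%. Of BM cells, 2062 had 2 or more *MGLL* UMIs, and 220 had 6 or more, with a highest count of 27 in 1 cell. In AT the highest count was 3, and only 38 cells had 2 or more.

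**Figure D2:**
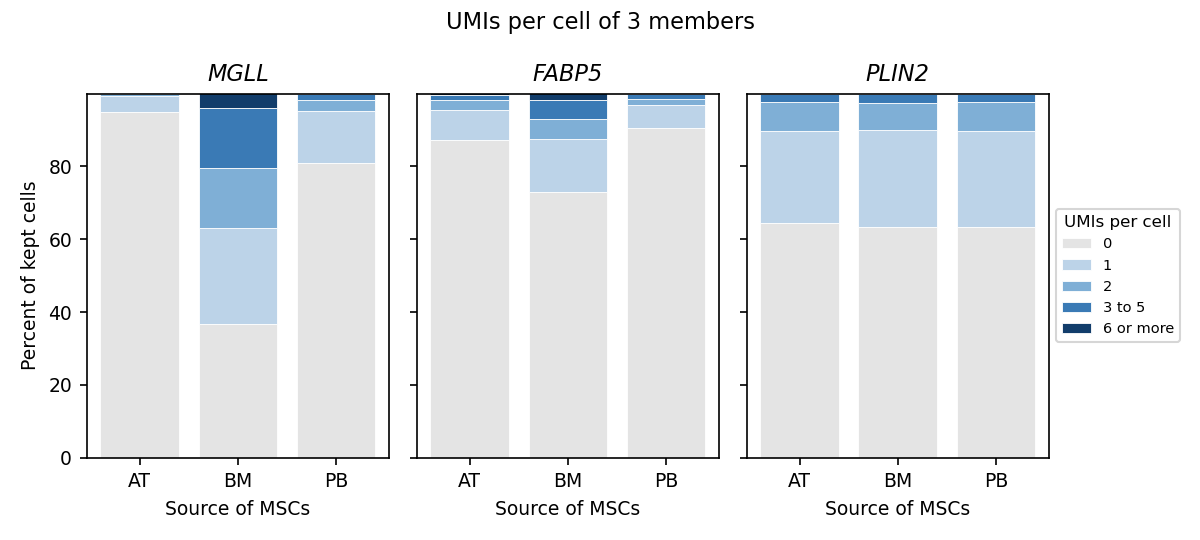
Percent of kept cells of each source with 0, 1, 2, 3 to 5, and 6 or more UMIs of MGLL, FABP5 and PLIN2. The share of cells with 0 MGLL UMIs is 36.6% in BM, 80.8% in PB and 94.8% in AT, whereas the PLIN2 bars of the 3 sources are nearly alike, with 63.3% to 64.4% of cells at 0.

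Cells of each source were clustered anew, as the deposited matrices name no clusters, and this gave 7 AT, 7 BM and 10 PB clusters, of which 23 had at least 100 cells. The clusters were built from all variable genes, so values per cluster are descriptions. *MGLL* was present in every BM cluster, from 165 CPM (149 to 182) in BM cluster 6 to 248 CPM (237 to 258) in BM cluster 1. In AT no cluster came above 14.2 CPM. The lowest BM cluster thus lay above the highest cluster of both other sources. In PB the levels ran from 17.6 to 40.2 CPM in 8 of the 9 clusters with at least 100 cells, but PB cluster 4 stood apart at 112 CPM (102.0 to 122.5).

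PB cluster 4 held 397 cells, 7.47% of the PB cells, and 32.1% of the *MGLL* UMIs of PB. Its leading genes were those of dividing cells, such as *UHRF1*, *CDK1* and *TOP2A*, 95.2% of its cells were called S or G2M, and its median depth was 10899 UMIs. This cluster was examined after its values were seen. Within each phase of the cell cycle its *MGLL* level was above that of the other PB cells. It was 115 against 27.0 CPM in G1, where the cluster had only 19 cells, 125 against 23.9 CPM in S and 101 against 28.8 CPM in G2M. In BM, *MGLL* was at 219 CPM (213 to 225) in G1, 208 CPM (198 to 218) in S and 173 CPM (163 to 183) in G2M. The G2M interval lay below those of G1 and S. The part of multiplets in PB cluster 4 was not tested.

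Of the droplet coats among the 10 genes, *PLIN2* was the one with plentiful UMIs. *PLIN2*, on chromosome 23, encodes perilipin 2, the droplet coat of cells other than fat cells. The AT library held 2657 of its UMIs, the BM library 2810 and the PB library 2654, or 66.5 CPM (64.0 to 69.0), 69.8 CPM (67.3 to 72.5) and 63.8 CPM (61.4 to 66.2). The intervals of AT and BM overlapped, as did those of AT and PB. The ratio of BM to AT was 1.05 (0.996 to 1.11), that of BM to PB was 1.10 (1.04 to 1.16) and that of PB to AT was 0.959 (0.909 to 1.01). The direction of both ratios with BM turned with the scaling, since with TMM factors the log2 ratio was -0.21 for BM minus AT and -0.10 for BM minus PB. Cells with a *PLIN2* UMI made up 35.6% of AT, 36.7% of BM and 36.6% of PB cells. The *PLIN2* counts of single cells were likewise close between sources, apart from 1 AT cell with 14 UMIs, while the highest counts in BM and PB were 6 and 5.

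*PLIN2* differed between the clusters of a source. It was highest in PB cluster 5 at 108 CPM (97.4 to 120), a cluster with *PLTP*, *LAMP2* and *PCOLCE* among its leading genes, and lowest in AT cluster 3 at 40.4 CPM (35.4 to 46.0). In AT, cluster 2 reached 95.8 CPM (88.0 to 104), and in BM, cluster 6 reached 91.4 CPM (79.7 to 104). Of the cells of these clusters, 65.5% and 65.6% were called S or G2M. At resolution 0.4, clusters with at least 100 cells ran from 47.9 to 83.5 CPM in AT and from 51.01 to 108 CPM in PB. In BM they ran only from 65.4 to 72.7 CPM, near the range of the 3 libraries. This leaves out a BM cluster of 89 cells at 101 CPM (79.9 to 125). PB cluster 4, led by genes of dividing cells, had the lowest *PLIN2* of PB at 50.7 CPM (44.1 to 58.0). Its interval overlapped that of PB cluster 2, at 51.0 CPM (45.4 to 57.2), where 31.7% of cells were called S or G2M. By phase, *PLIN2* in AT was at 61.3 CPM in G1, 67.5 CPM in S and 84.7 CPM in G2M. In BM it was at 68.9, 64.7 and 80.0 CPM, and in PB at 62.8, 66.4 and 63.6 CPM.

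The coats that mark fat cells were near the limit of detection. *PLIN1*, on chromosome 1, encodes perilipin 1, the coat of adipocyte droplets that controls access of lipases. Only 3 UMIs were found in AT cells, 1 in a BM cell and 5 in PB cells, each in a cell of its own. *CIDEC*, on chromosome 16, encodes a protein that fuses droplets into the single large droplet of white fat. AT cells gave 0 UMIs, BM cells 1 and PB cells 1. With 3 UMIs over the library taken as the limit that a count of 0 allows, that limit was 0.0750 CPM and 0.0555% of AT cells with a UMI, which does not limit the share of cells that express the gene. Of the family neighbours, *PLIN3*, a widely expressed coat, was at 25.1 CPM in AT, 30.8 CPM in BM and 22.3 CPM in PB, and *PLIN4*, a coat of adipocytes and muscle, had 0, 8 and 0 UMIs.

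Of the fatty acid binding proteins, *FABP5*, on chromosome 9, encodes the epidermal form, which adipocytes and many dividing cells also make. The authors counted duplicated features in a separate run and merged them. Whether *FABP5* was among those features is not known, so its level is uncertain to that extent. UMIs of *FABP5* numbered 1147 for AT, 3178 for BM and 837 for PB, or 28.7 CPM (27.1 to 30.4), 79.0 CPM (76.3 to 81.8) and 20.1 CPM (18.8 to 21.5). BM was 2.75-fold above AT (2.57 to 2.95) and 3.93-fold above PB (3.64 to 4.24), and AT was 1.43-fold above PB (1.30 to 1.56). At least 1 UMI was present in 27.0% of BM, 12.8% of AT and 9.46% of PB cells. In cells thinned to 2500 UMIs the shares were 13.0%, 5.40% and 3.197%.

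In cells thinned to 2500 UMIs, the variance of *FABP5* counts over their mean, which is near 1 for counts spread evenly over cells, was 1.32 in AT, 1.48 in BM and 1.22 in PB, against 1.03 to 1.06 for *PLIN2*. *FABP5* differed between phases of the cell cycle in each source, with much of the difference in AT and PB held by 1 cluster, as given below. In AT it was at 9.19 CPM in cells called G1, 55.5 CPM in S and 61.6 CPM in G2M. In BM it was at 24.6, 150 and 197 CPM, and in PB at 6.13, 30.6 and 57.3 CPM. BM was the highest in each phase, and it stayed past 2-fold above AT and PB when only G1 cells were used, with log2 ratios of 1.33 and 1.85.

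**Figure D3:**
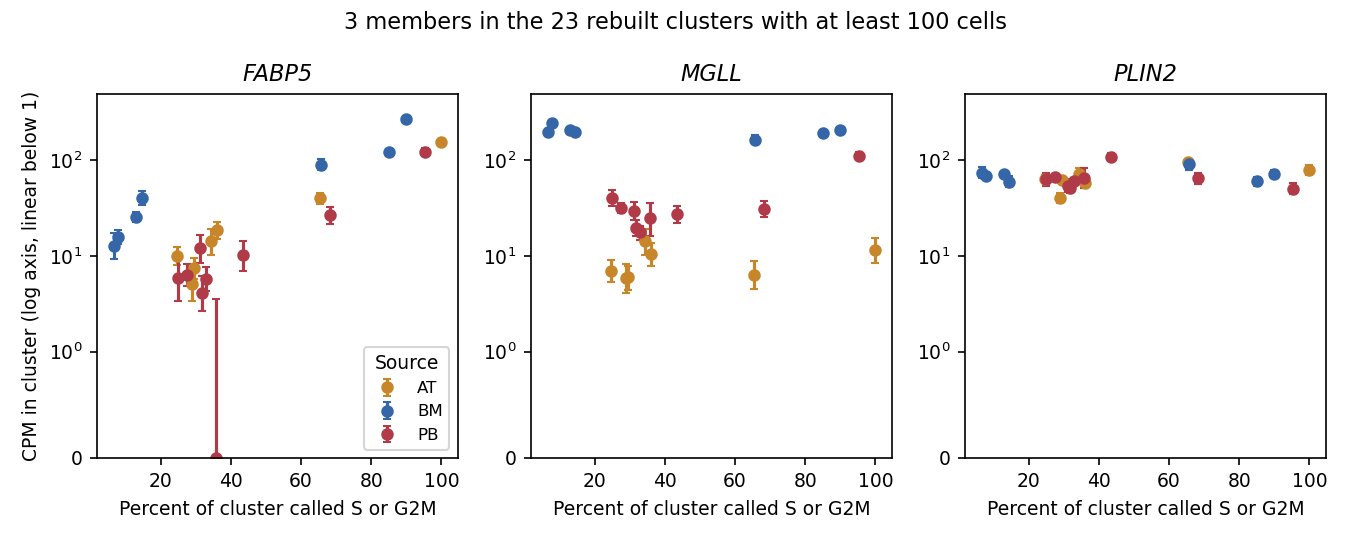
CPM of FABP5, MGLL and PLIN2 (log axis, linear below 1) in each of the 23 clusters with at least 100 cells, against the percent of the cluster's cells called S or G2M, with exact 95% Poisson intervals and colours for the 3 sources. The clusters with most cells in S or G2M have the highest FABP5, up to 270 CPM in BM, whereas MGLL is higher in every BM cluster than in any AT or PB cluster. The lowest PB cluster, at 17.6 CPM of MGLL, lies above the highest AT cluster, at 14.2 CPM, but their intervals overlap. For MGLL, 1 PB cluster at 112 CPM lies above the other PB clusters, and PLIN2 lies between 40.4 and 108 CPM throughout.

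The highest *FABP5* cluster of each source held cells in S or G2M. AT cluster 6, all of whose cells were called S or G2M, was at 155 CPM (143 to 168) and held 52.7% of the *FABP5* UMIs of AT. PB cluster 4, described above for *MGLL*, was at 124 CPM (113 to 135) and held 62.0% of those of PB. BM cluster 3 was at 270 CPM (257 to 284) and held 51.9% of those of BM with 11.6% of its cells. BM cluster 3 had genes of growth factor binding proteins and homeobox factors, *IGFBP5*, *IGFBP3*, *HMX2* and *HMX3*, among its leading genes. Of its cells, 89.95% were called S or G2M. These clusters were picked for their *FABP5* level. Without AT cluster 6, *FABP5* in AT was at 9.19 CPM in G1, 21.7 CPM in S and 34.8 CPM in G2M, and without PB cluster 4 it was at 5.58, 10.3 and 21.7 CPM in PB. Within phases, *FABP5* in BM cluster 3 was 110 CPM against 22.6 CPM in the other BM cells in G1, 295 against 84.2 CPM in S and 281 against 132 CPM in G2M.

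*FABP4*, on chromosome 9, encodes the adipocyte form of the binding proteins, which endothelial cells and macrophages also make. A single UMI was found in AT, against 109 in BM and 0 in PB. The BM level was 2.71 CPM (2.22 to 3.27), at least 37.6-fold higher than in PB, taking 3 UMIs over the library as the limit there. Against the single UMI of AT the ratio was 108, with a counting interval from 19.0 to 4316. The 109 UMIs were found in 103 BM cells, 1.85% of the source (1.51 to 2.23), of which 4 had 2 or more. *FABP3*, the heart form, was at 83.5 CPM in AT, 95.8 CPM in BM and 110 CPM in PB.

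Endothelial and haematopoietic markers were read beside *FABP4* in the libraries. Of the endothelial markers, *PECAM1* had 0 UMIs in AT and BM and 5 in PB, *CDH5* had 0, 2 and 2, and *KDR* had 0 in all 3. The summed level of the 6 markers in the matrices was 0.700, 0.273 and 0.264 CPM in AT, BM and PB. *CLDN5*, the only 1 of them with at least 30 UMIs, was highest in AT. Its log2 ratio was -0.45 for BM minus AT, 0.13 for BM minus PB and -0.58 for PB minus AT. *PECAM1*, *CDH5*, *KDR*, *PTPRC* and *CD14* are named here although outside the naming rule. Of the macrophage and haematopoietic markers, 3 of 8 had 0 UMIs in every library, among them *PTPRC*, which encodes the pan-leukocyte antigen CD45, and *CD14* had 0, 2 and 1 UMIs. The summed level of this list was 7.003, 11.1 and 4.90 CPM. Nearly all of it came from *CD68*, which encodes a lysosomal protein, at 6.88, 11.03 and 4.85 CPM. Like *FABP4*, *CD68* was highest in BM. It was past 2-fold higher there than in PB, at a log2 ratio of 1.04, but fell short with TMM factors, at 0.83. The part of endothelial or haematopoietic cells in the *FABP4* UMIs was not tested.

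*LPL*, on chromosome 2, encodes lipoprotein lipase, which is secreted by fat and muscle cells and frees fatty acids from lipoproteins. AT cells gave 72 UMIs, BM cells 33 and PB cells 0, or 1.80 CPM (1.41 to 2.27) and 0.820 CPM (0.565 to 1.15) in AT and BM. The AT level was 2.20-fold the BM level (1.44 to 3.42), at a log2 ratio of CPM + 1 for BM minus AT of -0.62, and at least 24.99-fold higher than in PB. The BM level was at least 11.4-fold higher than in PB. *LPL* was seen in 70 AT cells and 32 BM cells. In AT it was not held by a single cluster, with 1.20 to 2.56 CPM over the 7 clusters.

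The main regulators of fat cell formation were low in all 3 libraries and highest in BM. *PPARG*, on chromosome 16, encodes the receptor PPARγ. The libraries held 53 (AT), 150 (BM) and 5 (PB) of its UMIs, or 1.33 CPM (0.993 to 1.73), 3.73 CPM (3.16 to 4.37) and 0.120 CPM (0.0390 to 0.280). The 3 intervals did not overlap. BM was 2.81-fold above AT (2.04 to 3.92) and 31.0-fold above PB (13.0 to 97.0), and AT was 11.04-fold above PB (4.44 to 35.4). *CEBPA*, on chromosome 10, encodes C/EBPα. They held 13 (AT), 148 (BM) and 8 (PB) UMIs of *CEBPA*, or 0.325 CPM (0.173 to 0.556), 3.68 CPM (3.11 to 4.32) and 0.192 CPM (0.0830 to 0.379). BM was 11.3-fold above AT (6.41 to 21.7) and 19.1-fold above PB (9.46 to 45.1). AT and PB could not be told apart for *CEBPA*, with a ratio of 0.591 for PB to AT and an interval from 0.212 to 1.54. In BM, *PPARG* was seen in 2.49% of cells and *CEBPA* in 2.38%.

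*ADIPOQ*, on chromosome 19, encodes adiponectin, a hormone secreted by mature adipocytes. It had 8 UMIs in 7 AT cells, 6 UMIs in 4 BM cells and 0 UMIs in PB. The levels of AT and BM were 0.200 CPM (0.0864 to 0.394) and 0.149 CPM (0.0547 to 0.325). With 3 UMIs as the limit in PB, AT was at least 2.78-fold and BM at least 2.07-fold higher than PB, without the counting error of the AT and BM counts, and the lower end of the BM interval lay below that limit of 0.0721 CPM. At this depth AT and BM could not be ordered for *ADIPOQ*, with a ratio of BM to AT of 0.745 (0.213 to 2.45). *LEP*, which encodes the other main fat cell hormone, leptin, had 3 UMIs in AT and 0 in BM and PB.

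Within BM, *PPARG*, *CEBPA* and *FABP4* were not evenly spread over the clusters. *PPARG* was highest in BM cluster 0, at 8.17 CPM (6.49 to 10.2), and BM cluster 4, at 7.27 CPM (4.71 to 10.7), and these intervals overlapped. It was lowest in BM cluster 1, at 0.573 CPM (0.186 to 1.34), and BM cluster 3, at 0.328 CPM (0.0397 to 1.18). BM cluster 0 held 26.8% of the BM cells and 54.0% of the *PPARG* UMIs. *FABP4* had its highest levels in the same clusters, at 4.74 CPM (3.48 to 6.30) in BM cluster 0 and 5.24 CPM (3.10 to 8.28) in BM cluster 4. These intervals overlapped those of BM cluster 2, at 3.38 CPM (2.06 to 5.21), and BM cluster 6, at 2.92 CPM (1.17 to 6.02). In BM cluster 1 *FABP4* was at 1.49 CPM (0.793 to 2.55). *CEBPA* was at 10.4 CPM (6.75 to 15.4) in BM cluster 6, 7.86 CPM (5.18 to 11.4) in BM cluster 4 and 5.75 CPM (4.35 to 7.45) in BM cluster 0, and these 3 intervals overlapped. At the coarser resolution of 0.4 its highest level was 7.14 CPM (5.77 to 8.74) in the largest cluster. By phase it was at 4.59 CPM in G1, 1.54 CPM in S and 2.91 CPM in G2M. BM cluster 3, where *FABP5* was highest, had 1 *FABP4*, 2 *PPARG* and 2 *CEBPA* UMIs in 647 cells.

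BM clusters 0 and 4 shared *SPON1*, *EPHX1* and *IGF2* among their leading genes. BM cluster 1, with little *PPARG*, was led by genes that include *SP7* and *ALPL*, a transcription factor and a phosphatase of bone-forming cells. *SP7* was at 56.4 CPM (51.5 to 61.6) and *IBSP*, which encodes bone sialoprotein, at 119 CPM (112 to 127) there. In BM cluster 0 *SP7* was at 17.0 CPM (14.6 to 19.8) and *IBSP* at 0.605 CPM. In BM cluster 4 *IBSP* was at 10.8 CPM (7.58 to 14.8). *SP7* did not run opposite to *PPARG* throughout, since BM cluster 4 had the second highest *SP7* of the BM clusters, at 32.9 CPM (27.1 to 39.5), and BM cluster 3 had little of both. *CFD*, which encodes adipsin, a serine protease secreted by fat cells, was largely in BM cluster 4, which held 86 of its 137 BM UMIs at 25.02 CPM (20.02 to 30.9), with all of them in 29 of 533 cells. At resolution 0.4 this cluster did not form, and the cluster with most *CFD* UMIs, of 2034 cells, held 101 of the 137 at 7.67 CPM (6.25 to 9.32). *SP7*, *IBSP* and *CFD* were added to the cluster values after these had been seen.

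**Figure D4:**
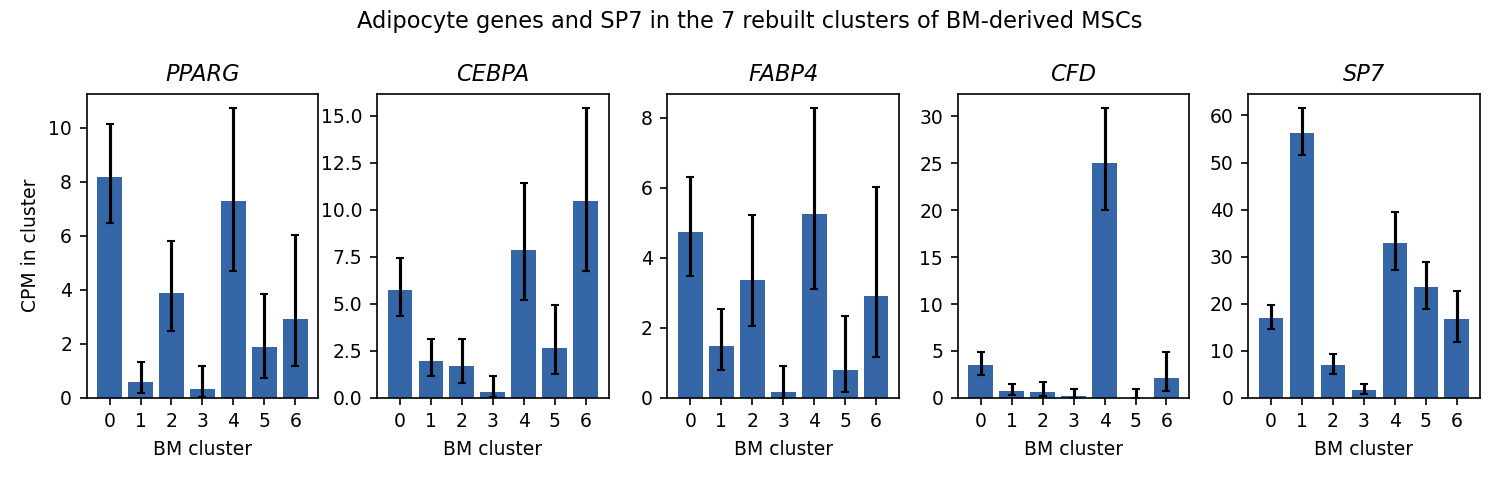
CPM of PPARG, CEBPA, FABP4, CFD and SP7 in each of the 7 clusters of BM-derived MSCs, with exact 95% Poisson intervals as error bars and a separate axis from 0 for each gene. PPARG and FABP4 are highest in clusters 0 and 4, CFD in cluster 4 at 25.02 CPM, and SP7 in cluster 1 at 56.4 CPM. For FABP4 the intervals of clusters 0 and 4 overlap those of clusters 2 and 6.

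The adipocyte genes were rarely seen in the same cell. Over *ADIPOQ*, *PLIN1*, *CIDEC*, *LEP*, *LPL*, *FABP4*, *PPARG*, *CEBPA* and *CFD*, a set made after the values were known, 426 BM cells had UMIs of 1 gene, 23 of 2 genes and 3 of 3 genes, and 5128 had none. In AT, 151 cells had 1 gene and 3 had 2, and in PB 17 cells had 1 gene and 0 had 2. No cell of any source had 4 of the 9 genes. Of the 103 BM cells with *FABP4*, 7 had *PPARG*, or 6.80% against 2.49% of all BM cells. *CEBPA* was in 4 of them, or 3.88% against 2.38%, and *CFD* in 6, or 5.83% against 1.22%. *LPL* and *ADIPOQ* were in 0 of them. The depth of the cells was not taken into account. At counts this low most cells that hold a transcript give no UMI, so the absence of a second gene in a cell says little. *MGLL* was seen in 68.9% of the BM cells with *FABP4* and in 63.4% of all BM cells.

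The labels of the cultures were checked against lists of cell type markers, to be read against the shares over all compared genes. In BM against AT, 7.71% of these were past 2-fold higher and 2.51% lower in BM. In BM against PB the shares were 5.52% and 2.16%, and in PB against AT 5.4% were higher and 4.3% lower in PB. All 6 MSC markers had UMIs in each source, but *NT5E*, which encodes CD73, had few, namely 9 (AT), 30 (BM) and 43 (PB). The list had summed levels of 2744 CPM in AT, 2346 CPM in BM and 2669 CPM in PB, with *CD44* past 2-fold lower in BM than in AT and *THY1* past 2-fold lower in PB than in both others. The 9 adipocyte markers, which include *PPARG*, *CEBPA*, *ADIPOQ*, *PLIN1* and *CIDEC* of the genes above, summed to 56.7, 86.7 and 61.5 CPM. Most of that came from *PNPLA2*, the triglyceride lipase that many cells make, at 52.6, 74.0 and 59.6 CPM, and 5 of the 9 reached 30 UMIs. *CFD* had 22 UMIs in AT, 12 of them in 1 cell, 137 in BM and 0 in PB, and it too reached 30 UMIs only through BM. The ratio of BM to AT was 6.19 (3.93 to 10.2), an interval that holds for independent counts only. All 4 osteoblast markers in the matrices were past 2-fold higher in BM than in AT, and 3 were higher in PB than in AT. *IBSP*, for which AT gave 0 UMIs, BM 1299 and PB 28, reached 30 UMIs only through BM. The list was led by *ALPL* at 2.88 CPM in AT, 96.0 CPM in BM and 326 CPM in PB. Of 4 chondrocyte markers 2 were compared, and *SOX9* was past 2-fold higher in BM and in PB than in AT. Of 5 smooth muscle markers, *DES* was past 2-fold lower in BM than in AT, and *DES*, *CNN1* and *MYH11* were past 2-fold lower in PB than in both AT and BM.

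The other genes of these pathways were described by list, to be read against the same shares over all compared genes. These were 7.71% past 2-fold higher and 2.51% lower in BM than in AT, and 5.52% and 2.16% in BM than in PB. For PB against AT they were 5.4% higher and 4.3% lower in PB. Among 20 further adipogenic regulators, 17 were compared, 0 were past 2-fold higher in BM than in AT and 2 were lower, with a median log2 ratio of 0.04 beside 0.21 over all compared genes. The 2 were *CEBPD*, an early partner of C/EBPα, at 43.0 CPM in AT, 8.18 CPM in BM and 27.4 CPM in PB, and *EBF2*, a factor of fat cell precursors, with 132, 8 and 0 UMIs, which reached 30 UMIs only through AT. Both thus had their highest level in AT, where *PPARG* and *CEBPA* were below BM. With TMM factors *KLF4* was also lower, at a log2 ratio of -1.10 in place of -0.83. In BM against PB, 2 regulators were higher in BM. They were *GATA2*, a factor that holds back fat cell formation, at 25.1, 20.8 and 5.93 CPM, and *GATA3*, named here although outside the naming rule, which had 28 UMIs outside BM and so reached 30 UMIs only through BM. Another 2 were higher in PB, among them *KLF4*, at 92.2, 51.6 and 115 CPM.

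Among 16 other genes of the lipid droplet and lipolysis, 11 were compared, and 1 was past 2-fold higher in BM than in AT and 1 lower. *CAV1*, which encodes the caveolar protein caveolin 1, was at 78.5 CPM in AT, 195 CPM in BM and 139 CPM in PB. *G0S2*, which encodes an inhibitor of the triglyceride lipase PNPLA2, was at 61.6, 5.12 and 3.89 CPM, so that AT was 12.0-fold above BM (10.4 to 13.9) and 15.8-fold above PB (13.5 to 18.7). In AT it had a UMI in 25.2% of cells. *HILPDA*, which encodes another inhibitor of that lipase, was at 32.5, 44.3 and 65.3 CPM and past 2-fold in no comparison.

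Of the 9 compared genes of triglyceride synthesis, *GPAM*, which encodes the enzyme of the first step, was past 2-fold higher in BM than in both other sources, at 2.80 CPM in AT, 8.37 CPM in BM and 3.24 CPM in PB, and 0 were lower. With TMM factors *GPAM* fell short of 2-fold in BM against PB, at a log2 ratio of 0.94 in place of 1.14. Among 17 compared genes of fatty acid uptake and binding, 0 were past 2-fold between BM and AT, but with TMM factors 2 were lower in BM, *VLDLR* at -1.10 and *CD36* at -1.09. In BM against PB, the transporter gene *SLC27A6* was higher in BM, with 65 UMIs against 0, having reached 30 UMIs only through BM, and the lipoprotein receptor gene *VLDLR* was lower, at 18.4 against 44.9 CPM. Of the 12 compared genes of fatty acid synthesis, 3 were past 2-fold higher in BM than in AT. They were the desaturase genes *SCD5*, at 2.23, 16.0 and 0.889 CPM in AT, BM and PB, and *FADS2*, at 2.73, 9.64 and 26.1 CPM, and *ME1*, which encodes an enzyme that supplies NADPH, at 29.8, 68.9 and 40.4 CPM. With TMM factors 2 were, since *ME1* fell short at a log2 ratio of 0.91 in place of 1.18. *FADS2* thus had its highest level in PB, 2.71-fold above BM (2.41 to 3.05), whereas *SCD5* was 18.0-fold higher in BM than in PB (12.9 to 25.8).

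Of 20 genes of fatty acid oxidation, all were compared, and 1, *CPT1A*, which encodes the enzyme that admits fatty acids to mitochondria, was past 2-fold higher in BM than in AT and in PB than in AT, at 12.3, 34.8 and 29.3 CPM. The 22 genes of cholesterol synthesis had a median log2 ratio of -0.27 for BM minus AT. *TM7SF2*, which encodes a sterol reductase, was past 2-fold lower in BM than in AT, at 4.88 CPM in AT, 1.29 CPM in BM and 3.39 CPM in PB. With TMM factors it was also past 2-fold lower in BM than in PB, at a log2 ratio of -1.08 in place of -0.94, and *PMVK* and *DHCR7* became past 2-fold lower in BM than in AT, at -1.03 and -1.06. Among 9 compared genes of endocannabinoid and monoglyceride metabolism besides *MGLL*, 0 were past 2-fold between BM and AT, with a median of 0.43. Among them, the enzyme genes *ABHD12*, at 26.2, 42.05 and 25.9 CPM, and *NAAA*, at 24.5, 43.5 and 34.7 CPM, were 1.60-fold (1.48 to 1.73) and 1.78-fold (1.64 to 1.93) above AT in BM. *PTGS2*, which encodes a prostaglandin synthase, was higher in BM and in AT than in PB, at 4.35, 6.19 and 1.13 CPM. Of the adipokine genes, 4 were compared, and *CCL2* and *CFD* were past 2-fold higher in BM than in AT. *CCL2*, a chemokine gene of stromal cells as well as fat, was at 16.3 CPM in AT, 553 CPM in BM and 560 CPM in PB.

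**Figure D5:**
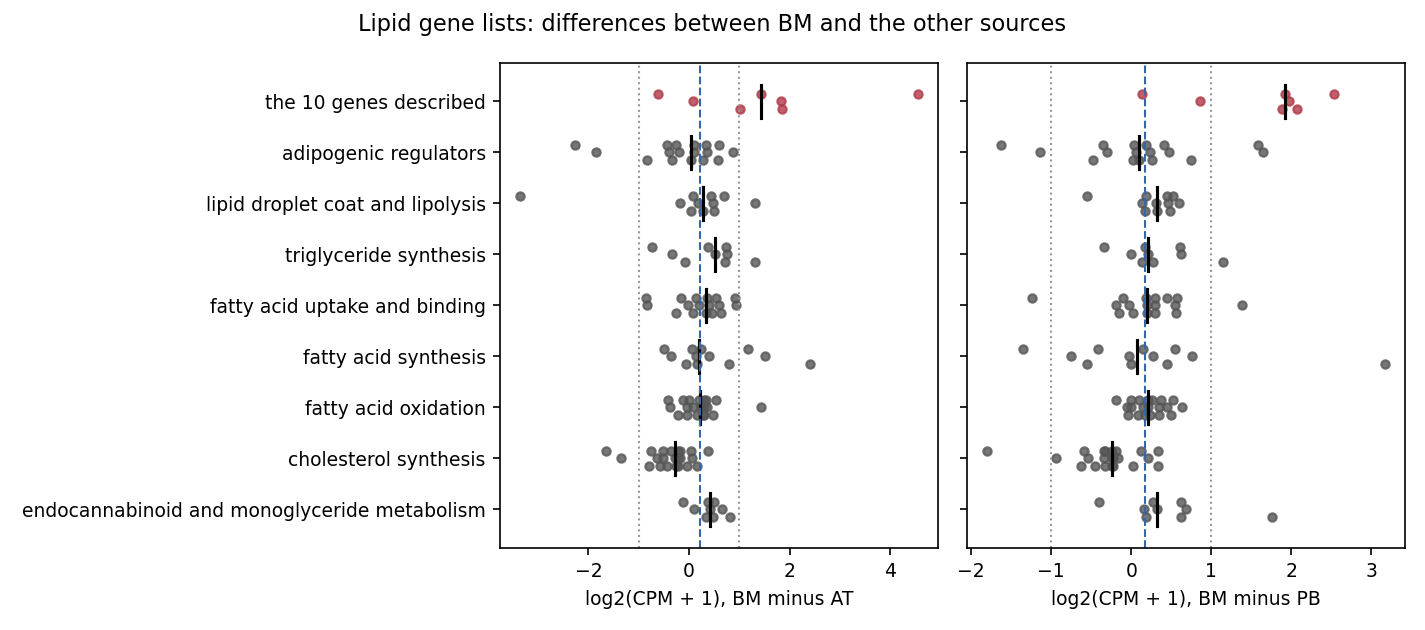
Difference in log2(CPM + 1), BM minus AT on the left and BM minus PB on the right, of each compared gene in 8 lists of lipid genes and of the 7 compared of the 10 genes described, which are left out of the other rows. Black bars are list medians, the dashed line is the median of all 13501 compared genes (0.21 and 0.18) and dotted lines mark 2-fold; the rightmost point of the left panel is MGLL at 4.55.

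The genes most like the 3 plentiful genes in pattern were sought over the 23 clusters, among 4484 genes that reached 25 CPM in any source, by Pearson correlation of log2(CPM + 1). Clusters of a source share a library, so these are descriptions. *MGLL* was most like *SLC9B2* (r = 0.95), ENSECAG00000011807 (r = 0.95) and *SPTSSA* (r = 0.95). *PLIN2* was most like *ETFA* (r = 0.87), *CDC123* (r = 0.86) and *COPS6* (r = 0.86). *FABP5* was most like *CRELD2* (r = 0.97), *MRPL40* (r = 0.96) and *RPA3* (r = 0.95).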

How the data were processed

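MSC cultures of AT, BM and PB from 1 mare were captured with a droplet 3′ kit, 1 library per source. Per the labels and methods, the authors mapped reads to EquCab3.0 with Cell Ranger and counted UMIs per gene with ESAT, which adds reads just downstream of annotated genes, leaves out overlapping exons of opposite strands and counts duplicated features in a second run merged to 1 entry per gene. What they deposited are UMI counts, whole numbers that were not normalized, with a row for each gene and a column for each barcode. Whether the matrices still hold the barcodes that the authors called multiplets is not known, and no caller was run here.

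A barcode was kept as a cell when it had 2500 to 15000 UMIs and no more than 3% of them mitochondrial. UMIs were summed per source and given as CPM, with exact 95% Poisson intervals and, for shares of cells, Clopper-Pearson intervals (SciPy 1.17.1), and a level of 0 was set against 3 UMIs over the kept cells. That limit was 0.0750 CPM in AT, 0.0746 CPM in BM and 0.0721 CPM in PB. Reads of a droplet library are not all independent molecules, so intervals cover counting error only. The log2 ratios used a pseudocount of 1 CPM, and genes with at least 30 UMIs over the 3 libraries were compared, while folds are plain ratios of CPM without a pseudocount. Clusters and phases were made per source with Seurat 5.3.0 and sctransform 0.4.2 (R 4.3.3, 3000 variable genes, 20 neighbours, resolution 0.6), and TMM factors came from edgeR 4.0.16, which was used for no test. The ratio step was tested on simulated counts.

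The 10 genes, the marker and pathway lists and the alternatives were chosen with earlier results of these data known. Besides the 10 genes and their family neighbours, the text could name from each list the 3 genes with the highest CPM and the 3 with the largest log2 ratio, and other genes where stated. Gene sequences were not used here. The result of 1 gene of the cholesterol synthesis list is not reported here.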

Additional observations from a re-analysis of the deposited data

Results flagged for a closer look

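In barcodes left out by the UMI limits, 4 levels lay above those of the kept cells of the same library, with separate 95% Poisson intervals. In the 6155 AT barcodes under 2500 UMIs, *MGLL* was at 37.8 CPM (32.9 to 43.3) against 7.98 CPM in the kept AT cells. Of these barcodes, 5716 were also in another matrix. The kept PB cells, whose barcodes were all in the AT matrix too, had *MGLL* at 35.1 CPM (33.3 to 37.0), an interval that overlaps that of the low AT barcodes. In the 183 BM barcodes above 15000 UMIs, *FABP5* was at 143 CPM (131 to 157) against 79.0 CPM. In the 259 PB barcodes above 15000 UMIs, *MGLL* was at 75.2 CPM (67.6 to 83.3) against 35.1 CPM, and *FABP5* was at 37.9 CPM (32.6 to 43.8) against 20.1 CPM. The way these were picked was set after the values of the left-out barcodes had been seen and covers only higher levels. The part of free RNA, of barcodes shared between libraries and of multiplets in them was not tested.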

How the results depend on the processing

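With a pseudocount of 10 CPM in place of 1 CPM, 2 of the 10 genes were past 2-fold in BM against AT (*MGLL* and *FABP5*), 2 in BM against PB (the same 2) and 1 in PB against AT (*MGLL*), because the larger pseudocount shrinks the ratios of genes with few CPM. Under the other alternatives run, the counts were 4 or 5 in BM against AT, 5 in BM against PB and 2 or 3 in PB against AT. In BM against AT, *PPARG* fell short with TMM factors and in cells thinned to 2500 UMIs. In PB against AT it fell short when all barcodes with at least 500 UMIs were used. That setting held 10788 AT barcodes in place of 5403. The AT barcodes under 2500 UMIs, most of which were also in another matrix, had 0 *PPARG* UMIs. No called gene turned its direction under these alternatives. Leaving out barcodes that another matrix also held could not be done for PB, where it leaves 0 cells, so barcodes with at least 2500 UMIs in another matrix were left out instead, an alternative chosen after seeing the data. At resolution 0.4 the SD of *PLIN2* over the BM clusters with at least 100 cells was 0.078 (log2) in place of 0.20, without a cluster of 89 cells at 101 CPM. No paired analysis was possible because each source had 1 library. With 1 mare and 1 library per source these libraries give no spread between replicates, and at this depth the order of the sources cannot be given for *PLIN1* and *CIDEC*, nor that of AT and BM for *ADIPOQ*. TMM factors for the lists were an alternative chosen after seeing the data.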
